A study of Mus musculus with 5 samples.

Results

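The genes described here encode secreted and cell-surface metalloproteinases of the extracellular matrix, their close non-enzymatic relatives and their main inhibitors. They were chosen by symbol: every gene of the deposited files named Adamts, Adamtsl or Mmp with a number, plus Timp1 to Timp4. This gave 51 of 34590 genes, of which 19 were Adamts, 5 Adamtsl, 23 Mmp and 4 Timp genes. RNA sequencing compared the medial cortex (3 libraries) with the lateral cortex (2 libraries) of wild-type mice at stage E14.5. The mice were of a mixed strain background, the labels give no treatment, and both regions were dissected from brain. The labels do not say that replicates are separate embryos, and the p-values here reflect only how far these libraries vary, which may be technical.

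ADAMTS proteases are secreted zinc enzymes that cut matrix proteins such as proteoglycans and procollagens, and some also cut signalling proteins. The ADAMTS-like proteins share the ancillary domains but have no protease domain, and several bind fibrillin microfibrils. Matrix metalloproteinases (MMPs) cut collagens, laminins and many surface proteins, and the membrane-type MMPs stay anchored on the cell that makes them. The TIMPs are secreted inhibitors that block MMPs and, in the case of TIMP3, also ADAMTS and ADAM proteases. In developing cortex these proteins meet a matrix rich in hyaluronan, lectican proteoglycans and reelin, a glycoprotein of Cajal-Retzius cells that guides neuronal migration.

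Reads assigned to genes came to between 27406370 and 36460274 in medial and between 56147129 and 66981952 in lateral libraries, so depth differed with region. A gene was tested if it had enough reads for the default filter of edgeR, which 16229 genes did. Levels are normalised read counts in CPM, a gene's reads scaled to the size of its library, and each log2 fold change sets medial against lateral cortex, so that a positive one means higher in medial cortex. A gene was called higher or lower at a Benjamini-Hochberg adjusted p of 0.05 over all genes tested in edgeR's quasi-likelihood test. The label of cortex was borne out by its markers: Emx1 averaged 102 ± 17.4 CPM across the 3 medial and 79.6 ± 15.9 CPM across the 2 lateral libraries (SD), and all 10 listed cortical genes were detected. Among these, Emx2 was higher in medial cortex, and genes that were lower included the neuronal genes Tbr1 and Neurod2. All 7 listed Cajal-Retzius genes and 7 of 10 cortical hem genes were higher, and 0 of both lists lower, with summed levels of 521 to 626 CPM (Cajal-Retzius) and 133 to 404 CPM (hem) in medial libraries, against 163 to 200 CPM and 35.8 to 40.6 CPM in lateral libraries. Medial library 1 stood apart in several lists, first in its meningeal genes, whose sum over 10 listed genes was 308 CPM there, 30.9 and 36.5 CPM in medial libraries 2 and 3, and 20.8 and 26.1 CPM in the lateral libraries. It also had the highest hem sum (404 CPM, against 155 and 133 CPM in medial libraries 2 and 3), the highest microglial sum (62.2 CPM, against 29.9 and 33.7 CPM) and the lowest sum of the 10 cortical genes (1220 CPM, against 1774 and 2116 CPM in these and 3018 and 3442 CPM in the lateral libraries). None of the 10 meningeal genes was at 0 in every library, and of the 8 tested 0 were called. Of the vascular and immune lists, 1 of 10 endothelial genes (Cdh5) was lower, as were 5.10% of all genes tested, and 0 of 8 pericyte and 0 of 8 microglial genes were called. The medial libraries lay wholly below the lateral ones in 8 endothelial, 4 pericyte and 0 microglial genes, and in 26.7% of all genes tested. They lay wholly above in 0, 0 and 1. The median log2 fold changes of these lists were −0.51, −0.43 and 0.67. Their sums were 95.6 to 112, 129 to 152 and 29.9 to 62.2 CPM in medial libraries, against 127 to 144, 134 to 141 and 22.9 to 31.6 CPM in lateral libraries. Of 6 tested choroid plexus genes, 1 (Otx2) was higher, with sums of 9.23 to 18.3 CPM in medial and 2.57 to 12.9 CPM in lateral libraries. The part of these cell types in the results that follow was not tested. In bulk tissue, fewer cells of a type and less RNA per cell cannot be told apart.

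Of the 51 genes, 35 had enough reads to be tested, and 10 of these were called. The share was 28.6%, against 9.72% of all genes tested. The members and the gene lists were chosen with earlier results of these data known, so such shares are descriptions and carry no test. The calls were split evenly: 5 were higher in medial cortex (Adamts19, Adamts12, Adamts8, Timp3 and Mmp14), where the background was 4.62%, and 5 were lower (Adamtsl3, Adamts3, Adamts18, Adamts17 and Mmp17), where it was 5.10%. The median log2 fold change of the 35 was 0.21, beside 0.01 over all genes tested. Its sign was not stable: it was −0.11 without medial library 1, −0.065 with libraries paired by a tag in their deposited names, and −0.019 for the 29 members with at least 1 CPM in 2 libraries. The medial libraries lay wholly above the lateral ones in 11 of the 35 (background 26.5%) and wholly below in 12 (background 26.7%). Such separation was common throughout, at 53.3% of all genes tested. Both directions occurred within single families, as Adamts gave 3 higher and 3 lower genes of 18 tested and Mmp 1 each of 11.

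The edgeR calls, over all genes as among these, depended on which libraries were in the fit. Without medial library 2 or lateral library 2, edgeR called 0 of the members and 0% of all genes tested, with 4035 and 2456 genes and 16 and 12 members at an unadjusted p under 0.05. Without lateral library 1 it called 0 members and 0.108% of all genes, with 4050 genes and 18 members at an unadjusted p under 0.05. A count of 0 members in these fits therefore does not set the members apart from other genes.

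DESeq2 called 21.7% of all genes tested with all libraries, against 9.72% in edgeR. In 1 draw of data simulated with the spread that edgeR estimated, it exceeded the nominal share of false calls by more than edgeR did. That draw cannot tell how many calls of either tool are false in the real libraries. Without medial library 2, DESeq2 called 7 members higher and 5 lower, against 12.2% of all genes tested. Without lateral library 1 it called 5 higher and 6 lower (13.1% of all genes), and without lateral library 2 it called 4 higher and 5 lower (4.01%). It gave 3 and 4 members no adjusted p in the fits without lateral library 1 and 2. Without medial library 3 edgeR called Adamts3, Adamts12, Adamts17, Adamts19, Adamtsl3 and Timp3, and 3.01% of all genes. Without medial library 1 it called all 10 members and added Adamts5, Adamts7 and Adamts9, with 13.2% of all genes called. The 10 members had the same sign in all of these fits, which reuse libraries of the fit that chose them.

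**Figure D1:**
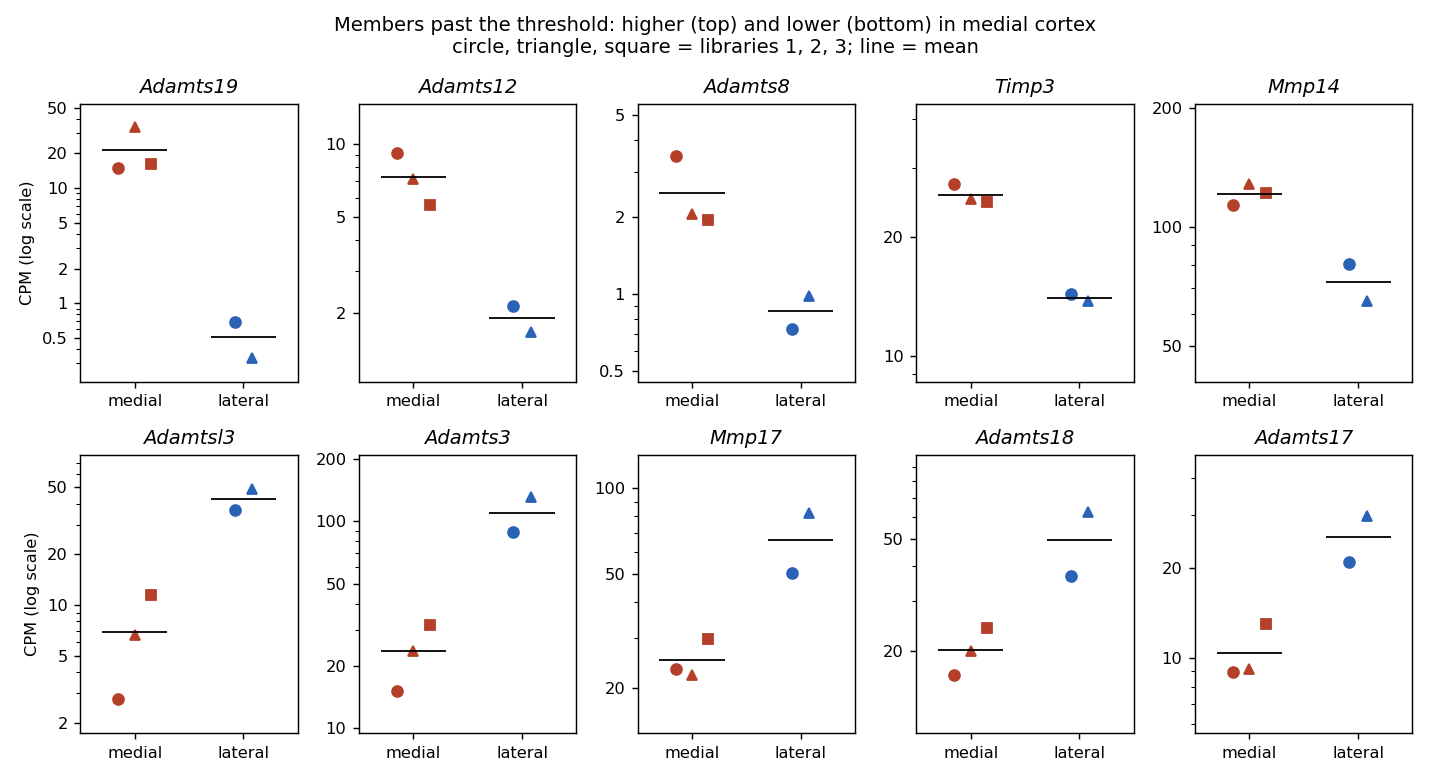
Normalised level (CPM, log axis, its range set for each gene) of the 10 called genes in each of the 3 medial (red) and 2 lateral (blue) libraries, with lines at the group means. In the top row the medial libraries sit above the lateral ones, from 41.2-fold for Adamts19 to 1.66-fold for Mmp14, and in the bottom row they sit below.

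The upstream sequence of some members can be set beside these levels. RefSeq promoter windows (GRCm38.p6, 250 bases before to 50 bases after the start) matched 36 of the 51 genes by symbol, taking the first window listed where a gene had more. The last 30 bases of the window occurred in a GENCODE transcript of the same gene for 31 of the 36, including the genes printed here. The following are the 250 bases upstream of the start, 5′ to 3′, for the 2 lower genes with the largest fold, for Adamts12, which was higher, and for Mmp20, which had 0 reads in every library. Capitals mark the dinucleotide CG, which reads the same on both strands. They show how far these promoters differ in CG content, which was 35, 39, 6 and 0 in the order printed. They lie at chr5:89883335-89883584, minus strand (Adamts3), chr7:82335444-82335693, plus strand (Adamtsl3), chr15:11064523-11064772, plus strand (Adamts12) and chr9:7627981-7628230, plus strand (Mmp20).
Adamts3: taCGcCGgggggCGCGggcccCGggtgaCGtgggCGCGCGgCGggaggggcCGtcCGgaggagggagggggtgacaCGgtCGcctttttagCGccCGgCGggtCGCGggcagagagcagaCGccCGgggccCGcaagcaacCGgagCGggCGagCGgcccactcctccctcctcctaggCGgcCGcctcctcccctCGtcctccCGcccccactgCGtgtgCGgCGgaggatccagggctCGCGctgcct
Adamtsl3: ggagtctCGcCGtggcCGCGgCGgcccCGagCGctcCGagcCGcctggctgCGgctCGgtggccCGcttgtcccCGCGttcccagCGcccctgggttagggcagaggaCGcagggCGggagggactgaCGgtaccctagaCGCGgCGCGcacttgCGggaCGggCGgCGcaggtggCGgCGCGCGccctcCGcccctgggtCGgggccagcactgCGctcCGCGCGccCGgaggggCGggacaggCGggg
Adamts12: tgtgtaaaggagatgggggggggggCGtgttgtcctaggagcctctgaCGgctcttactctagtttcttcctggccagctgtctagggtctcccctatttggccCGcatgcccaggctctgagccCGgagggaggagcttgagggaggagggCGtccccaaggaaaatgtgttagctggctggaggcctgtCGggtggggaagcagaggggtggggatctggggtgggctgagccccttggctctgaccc
Mmp20: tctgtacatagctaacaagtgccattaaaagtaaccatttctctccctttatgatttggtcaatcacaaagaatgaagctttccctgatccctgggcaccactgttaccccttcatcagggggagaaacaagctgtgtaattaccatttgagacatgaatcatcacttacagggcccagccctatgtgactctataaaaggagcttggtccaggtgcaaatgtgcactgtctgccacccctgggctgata

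Over the whole 300-base window, the 22 tested members with a promoter had a median of 21 CG (range 2 to 46). The 14 members with too few reads had a median of 1.5 (range 0 to 29). Of these, 10 are neighbouring Mmp genes with a median of 1 (range 0 to 4), and the other 4 had a median of 13 (range 2 to 29). Over 27025 gene symbols the median was 7, and 94.2% of promoters held at least 1 CG. Within the called genes, the 4 lower ones with a window had between 17 and 46 CG and the 3 higher ones between 7 and 24. These counts are descriptions of the windows and carry no test, since the members were chosen by family and the filter split them by level.

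**Figure D2:**
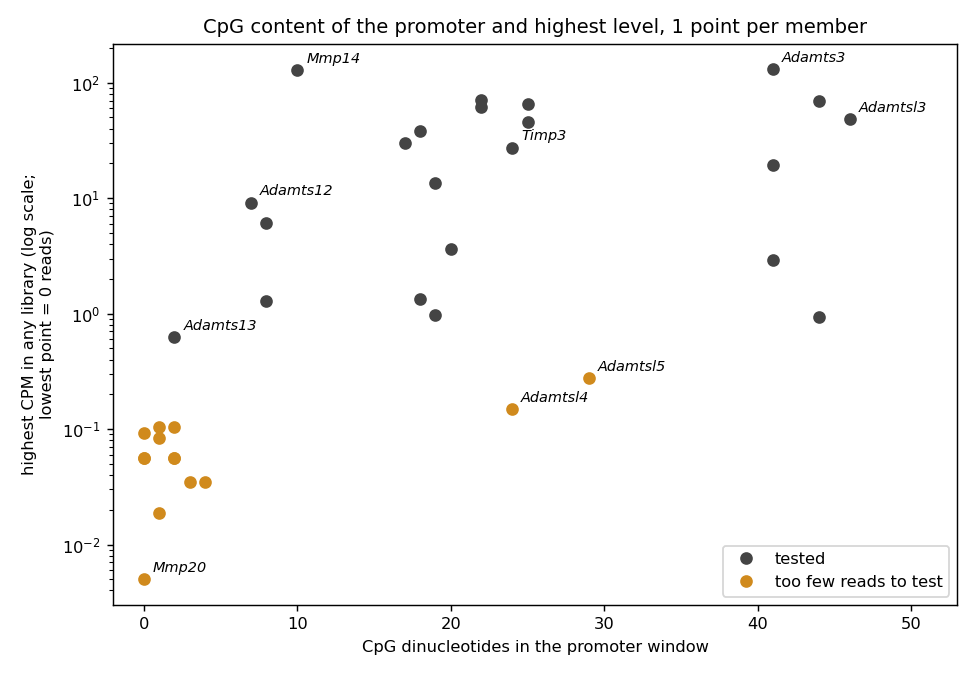
Number of CpG dinucleotides in the 300-base promoter window (x axis) against the highest CPM in any library (y axis, log scale), with 1 point for each of the 36 members that have a window. Members with too few reads to test (orange; the lowest point stands for 0 reads) lie mostly at 0 to 4 CpG, with Adamtsl4 and Adamtsl5 as exceptions at 24 and 29.

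The procollagen N-proteinases are Adamts2, Adamts3 and Adamts14, which remove the amino-terminal propeptide of fibrillar procollagens. In the mouse Adamts3 also cuts reelin at a site that inactivates it and activates the lymphatic growth factor Vegfc. Adamts3 had 15.2, 23.7 and 31.7 CPM in the medial libraries, against 88.8 and 130.1 CPM in the lateral ones. Every medial library was below every lateral one, and the log2 fold change was −2.21 (SE 0.31, edgeR adjusted p = 0.0296), a 4.63-fold lower level. Adamts2 did not pass the test, at 1.95 ± 0.842 CPM across the 3 medial and 0.906 ± 0.400 CPM across the 2 lateral libraries (SD) (log2 fold change 1.11, SE 0.45, edgeR adjusted p = 0.155). Adamts14 stayed under 1 CPM in all 5 libraries, and its groups overlapped.

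Among 11 listed substrates of single members, 3 of 10 tested were higher in medial cortex (background 4.62%) and 0 lower (background 5.10%). Their median log2 fold change was 1.31, beside 0.01 over all genes tested. Reln, the gene for reelin, had 435, 483 and 556 CPM in medial and 181 and 145 CPM in lateral libraries (log2 fold change 1.59, SE 0.15, edgeR adjusted p = 0.0253). Vegfc had 7.25, 11.96 and 9.40 CPM in medial and 4.39 and 3.10 CPM in lateral libraries (1.34, SE 0.28, edgeR adjusted p = 0.0418). Every medial library thus had less Adamts3 and more Reln and Vegfc RNA than every lateral library, and whether one bears on the other was not tested. The third called gene was the fibronectin gene Fn1 (0.56, SE 0.07). The procollagen genes Col1a1 (3.68, SE 2.02, edgeR adjusted p = 0.263) and Col1a2 (3.96, SE 1.97, edgeR adjusted p = 0.223) were named after their values were seen and did not pass. Col1a1 stood at 97.2 CPM in medial library 1 and at most 4.62 CPM in any other library.

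**Figure D3:**
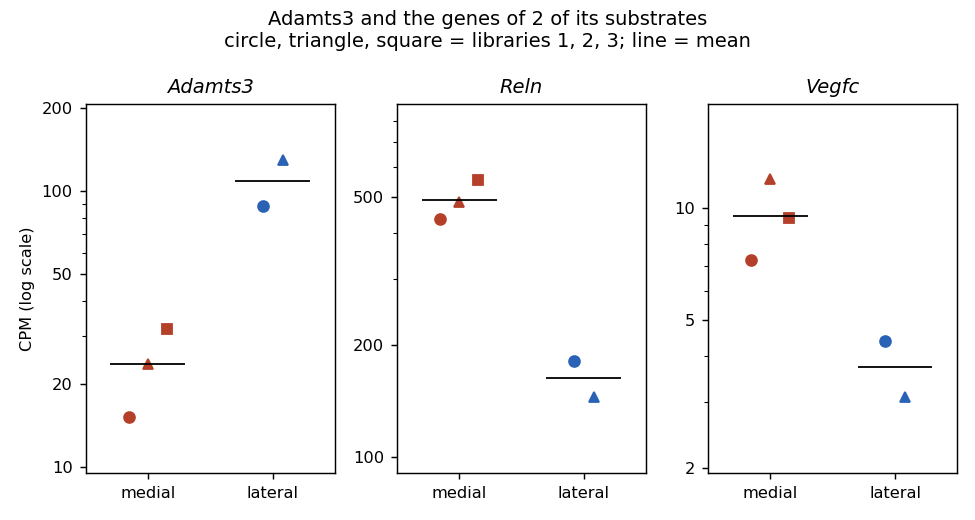
CPM (log axis) of Adamts3 and of the genes of its substrates reelin and Vegfc in the 3 medial (red) and 2 lateral (blue) libraries, with lines at the means. Adamts3 averaged 23.6 CPM in medial and 109 CPM in lateral libraries, whereas Reln averaged 491 CPM in medial and 163 CPM in lateral libraries, and Vegfc 9.54 CPM in medial and 3.75 CPM in lateral libraries.

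Several ADAMTS genes form pairs of close relatives, and members of a pair did not always move together. In the pair Adamts17 and Adamts19 the directions were opposite. Adamts19, a protease known from mouse heart valves, had 14.95, 33.9 and 16.1 CPM in the medial libraries, against 0.684 and 0.334 CPM in the lateral ones. This was the largest difference of the families, 41.2-fold, with a log2 fold change of 5.36 (SE 0.57, edgeR adjusted p = 0.0255). Without lateral library 1, which held 45 of its 63 lateral reads, the value was 5.99, and without medial library 2 it was 4.89. Adamts17, which is linked to fibrillin microfibrils, was lower, with 8.95, 9.13 and 12.9 CPM in medial and 20.9 and 29.8 CPM in lateral libraries (log2 fold change −1.29, SE 0.23, edgeR adjusted p = 0.0347).

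Of the pair Adamts16 and Adamts18, only Adamts18 had enough reads to test. Adamts18 had 16.3, 20.04 and 24.1 CPM in medial and 37.0 and 62.05 CPM in lateral libraries, with no overlap (log2 fold change −1.29, SE 0.25, edgeR adjusted p = 0.0396). Adamts16 reached 0.729 CPM in medial library 1 and at most 0.279 CPM in any other library.

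Adamts7 and Adamts12, which both cut cartilage oligomeric matrix protein, had log2 fold changes of opposite sign. Adamts12 had 9.16, 7.13 and 5.59 CPM in medial and 2.14 and 1.67 CPM in lateral libraries. Its groups did not overlap, and the level was 3.79-fold higher (log2 fold change 1.92, SE 0.28, edgeR adjusted p = 0.0296). Adamts7 had 25.7, 38.5 and 37.8 CPM in medial and 49.9 and 49.7 CPM in lateral libraries and did not pass (−0.55, SE 0.18, edgeR adjusted p = 0.0997), but it did in DESeq2 (0.0444) and in edgeR without medial library 1 (0.0354).

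The pair Adamts6 and Adamts10 acts on fibrillin microfibrils and cell contacts. Adamts6 had 35.6, 41.4 and 28.3 CPM in medial and 21.8 and 13.1 CPM in lateral libraries, a 2.01-fold difference that missed the threshold in edgeR (log2 fold change 1.00, SE 0.26, adjusted p = 0.0612) and passed in DESeq2 (0.00283). Adamts10 averaged 45.4 ± 3.13 CPM across the 3 medial and 47.0 ± 6.75 CPM across the 2 lateral libraries (SD) (−0.05, SE 0.12, edgeR adjusted p = 0.801). Adamts13, which cuts von Willebrand factor, stayed under 1 CPM in all 5 libraries.

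Among the 7 proteoglycan-cleaving members (Adamts1, Adamts4, Adamts5, Adamts8, Adamts9, Adamts15 and Adamts20), only Adamts8 was called, and narrowly. Adamts8 had 3.47, 2.06 and 1.95 CPM in medial and 0.730 and 0.984 CPM in lateral libraries (log2 fold change 1.54, SE 0.35, edgeR adjusted p = 0.0499). With all 5 libraries it kept its call in 5 of 11 alternative fits, and the adjusted p ranged from 0.00367 to 0.268 over all alternatives.

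Adamts9, a versican-cleaving protease, had 19.5, 65.4 and 57.0 CPM in medial and 17.0 and 8.49 CPM in lateral libraries. All medial libraries were above the lateral ones, but medial library 1 was close to lateral library 1, and the difference did not pass (log2 fold change 1.89, SE 0.57, edgeR adjusted p = 0.0836). It passed in DESeq2 (0.0428) and in edgeR without medial library 1 (log2 fold change 2.26, adjusted p = 0.0201). Adamts5, an aggrecan-cleaving enzyme, had 3.96, 0.839 and 1.47 CPM in medial and 5.26 and 7.04 CPM in lateral libraries (−1.57, SE 0.53, edgeR adjusted p = 0.104). Without medial library 1 it was lower, with a log2 fold change of −2.37 (edgeR adjusted p = 0.0189). Adamts1, Adamts4, Adamts15 and Adamts20 had overlapping groups. In the RefSeq order Adamts1 and Adamts5 are neighbours, as are Adamts8 and Adamts15. Adamts1 and Adamts20 reached 38.4 and 19.5 CPM in medial library 1, against at most 20.3 and 8.55 CPM in any other library.

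The lectican and hyaluronan matrix genes showed 2 calls among 10 tested of 14 listed, both higher in medial cortex (background 4.62%). Their median log2 fold change was 0.73, beside 0.01 over all genes tested. The summed level of the list overlapped between regions, at 1015.5, 1023 and 1018 CPM in medial and 953 and 1089 CPM in lateral libraries. Bcan, the gene for brevican, averaged 128 ± 45.2 CPM across the 3 medial and 23.1 ± 16.3 CPM across the 2 lateral libraries (SD) (log2 fold change 2.46, SE 0.54, edgeR adjusted p = 0.0464). The value was 3.46 without lateral library 1 and 1.88 without lateral library 2. Has2, a hyaluronan synthase, had 4.06, 6.43 and 4.70 CPM in medial and 0.0760 and 0.149 CPM in lateral libraries (5.50, SE 0.43, edgeR adjusted p = 0.0214). The lecticans Ncan (−0.57, SE 0.28, edgeR adjusted p = 0.212) and Vcan (0.33, SE 0.31, edgeR adjusted p = 0.499), named after their values were seen, did not pass.

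**Figure D4:**
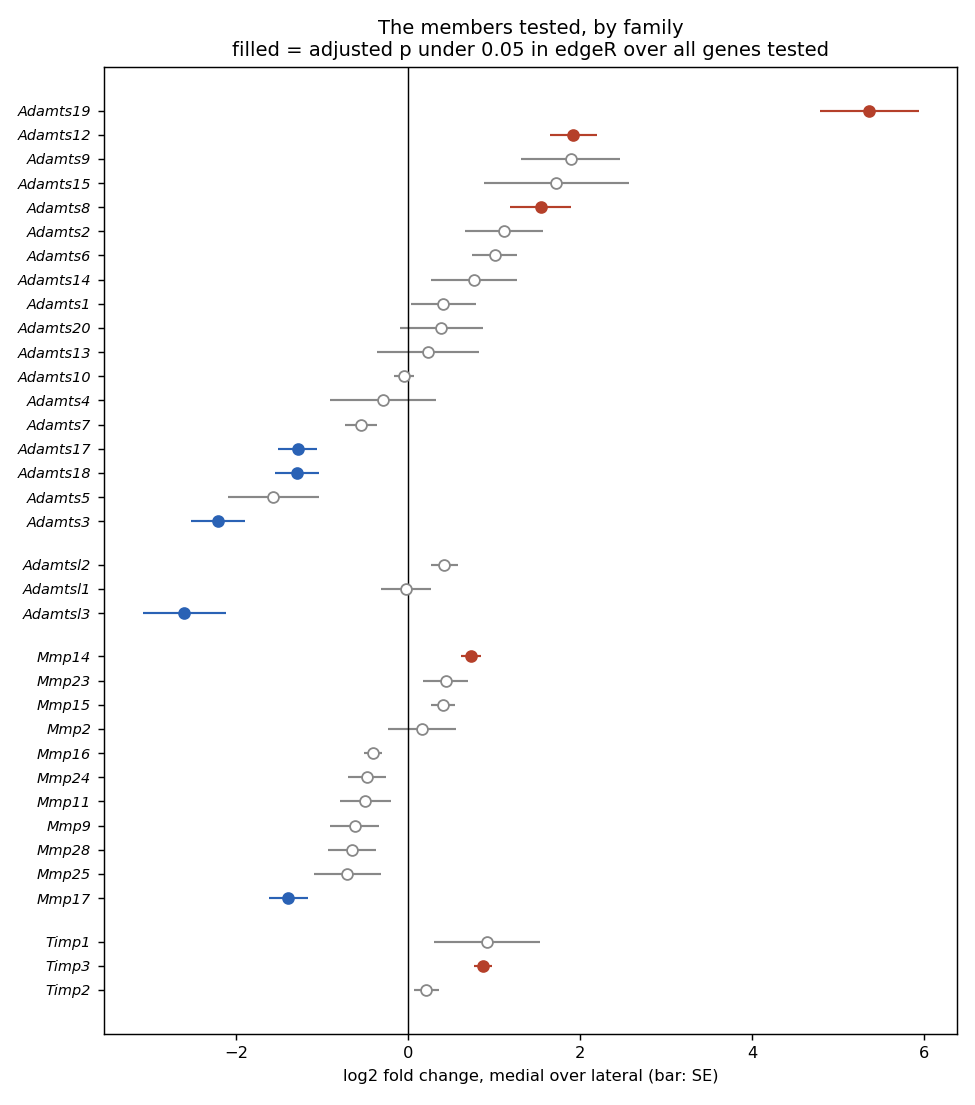
Log2 fold change, medial over lateral, of the 35 tested members by family, with bars of 1 SE. Filled points passed the threshold in edgeR (red higher, blue lower in medial cortex). Adamts spans from 5.36 for Adamts19 to −2.21 for Adamts3, and Mmp from 0.74 for Mmp14 to −1.39 for Mmp17.

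Of the 5 ADAMTS-like genes 3 were tested and 1 was called. Adamtsl3, a matrix protein without protease activity, had 2.78, 6.61 and 11.4 CPM in the medial libraries, against 36.7 and 48.5 CPM in the lateral ones. This was the largest fold toward lateral cortex of the families, 6.08-fold, with a log2 fold change of −2.60 (SE 0.48, edgeR adjusted p = 0.0366). The summed level of the 5 Adamtsl genes was 10.9, 15.6 and 18.7 CPM in medial and 43.1 and 55.5 CPM in lateral libraries. Adamtsl3 alone made up 36.7 and 48.5 CPM of the lateral sums, so they do not describe the other Adamtsl genes. Adamtsl2, which binds latent TGF-beta binding protein and fibrillin, averaged 5.71 ± 0.354 CPM across the 3 medial and 4.27 ± 0.0248 CPM across the 2 lateral libraries (SD) (0.42, SE 0.16, edgeR adjusted p = 0.130). Adamtsl1 averaged 2.22 ± 0.659 CPM across the 3 medial and 2.25 ± 0.317 CPM across the 2 lateral libraries (SD) (−0.03, SE 0.29, edgeR adjusted p = 0.963). Adamtsl4 and Adamtsl5 had 9 and 10 medial and 11 and 5 lateral reads in all.

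The fibrillin and elastic fibre genes, whose products several of these proteins bind, were higher in 5 of 15 tested of 18 listed (background 4.62%). They were lower in 0 (background 5.10%), and their median log2 fold change was 0.72, beside 0.01 over all genes tested. Loxl1, which crosslinks elastin, averaged 73.3 ± 15.2 CPM across the 3 medial and 3.48 ± 1.82 CPM across the 2 lateral libraries (SD) (log2 fold change 4.38, SE 0.38, edgeR adjusted p = 0.0231). Its log2 fold change was 5.06 without lateral library 1 and 3.94 without lateral library 2. Ltbp1, which holds TGF-beta in the matrix, had a log2 fold change of 3.04 (SE 0.53), which was 2.42 without medial library 1. The microfibril-associated gene Fbln1 was also called (0.72, SE 0.11). Lox, a crosslinking enzyme gene, had a log2 fold change of 6.68 (SE 1.33), which was 5.55 without medial library 1. Emilin2, the remaining called gene, was named after its value was seen (1.97, SE 0.39). The fibrillin genes Fbn1 (0.26, SE 0.29) and Fbn2 (0.21, SE 0.16), named likewise, did not pass. Without medial library 1, 8 of 15 were higher, in a fit that called 13.2% of all genes tested in either direction. The summed level of the list was 577, 523 and 489 CPM in medial and 306 and 246 CPM in lateral libraries, and the part of meningeal cells in it was not tested. Pofut2 (0.10, SE 0.09) and B3galtl (0.20, SE 0.14), which glycosylate thrombospondin repeats of ADAMTS proteins so that they are secreted, did not pass.

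All 6 membrane-type MMPs were tested, and 1 was higher and 1 lower. Mmp14, which activates pro-Mmp2 at the cell surface, had 113, 128 and 121 CPM in the medial libraries, against 80.3 and 65.0 CPM in the lateral ones. The groups did not overlap, and the log2 fold change was 0.74 (SE 0.12, edgeR adjusted p = 0.0316), a 1.66-fold difference. Mmp17, which is held in the membrane by a lipid anchor, had 23.3, 22.3 and 29.8 CPM in medial and 50.4 and 81.8 CPM in lateral libraries. It was 2.63-fold lower in medial cortex (log2 fold change −1.39, SE 0.23, edgeR adjusted p = 0.0318).

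The other 4 membrane-type genes did not pass. Mmp15 averaged 62.5 ± 6.94 CPM across the 3 medial and 47.2 ± 6.75 CPM across the 2 lateral libraries (SD) (log2 fold change 0.40, SE 0.13, edgeR adjusted p = 0.102). Mmp16 had 47.4, 51.2 and 49.6 CPM in medial and 59.3 and 72.3 CPM in lateral libraries (−0.41, SE 0.11, edgeR adjusted p = 0.0604) and passed in DESeq2. Mmp24, which is made mainly in the nervous system and cuts N-cadherin, averaged 44.0 ± 10.3 CPM across the 3 medial and 61.4 ± 11.7 CPM across the 2 lateral libraries (SD) without passing. Mmp25, lipid-anchored like Mmp17, had overlapping groups at up to 1.34 CPM.

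Secreted MMPs were scarce. The gelatinases, which cut denatured collagen and basement membrane, were at 2.88 ± 0.961 CPM across the 3 medial and 2.59 ± 1.22 CPM across the 2 lateral libraries (SD) for Mmp2, and at 1.61 ± 0.341 CPM across the 3 medial and 2.47 ± 0.680 CPM across the 2 lateral libraries (SD) for Mmp9. Neither passed. Mmp11, which is activated inside the cell by furin, had the highest level per kilobase of exon among the secreted ones, 3.37 CPM per kb in medial and 4.78 in lateral cortex. It had 5.59, 10.9 and 11.5 CPM in medial and 13.7 and 12.9 CPM in lateral libraries (log2 fold change −0.50, SE 0.30, edgeR adjusted p = 0.301). Mmp23 and Mmp28 were tested and did not pass.

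The other 12 Mmp genes had too few reads to test, and 10 of them are neighbours. In the RefSeq gene order (GRCm38.p6) Mmp13, Mmp12, Mmp1b, Mmp3, Mmp1a, Mmp10, Mmp8, Mmp27, Mmp20 and Mmp7 follow each other on chromosome 9 with no other protein-coding gene between them. They include the collagenases, the stromelysins Mmp3 and Mmp10, and the macrophage elastase Mmp12. Together they had 21 medial and 22 lateral reads, and the highest level of any of them in any library was 0.104 CPM. Their promoter windows held between 0 and 4 CG, a range that covers 38.3% of all promoters but 1 of the 22 tested members with a window. Mmp20, an enzyme of tooth enamel, had 0 reads throughout, which allows up to 0.105 CPM in the library with the highest such limit and 0.0456 CPM in the deepest, counting 3 reads as the limit and covering counting error only. Mmp19 and Mmp21, which lie elsewhere, reached 0.243 and 0.105 CPM.

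Of the 4 inhibitors 1 was called. Timp3, which stays bound to the matrix and inhibits ADAMTS and ADAM proteases as well as MMPs, had 27.4, 25.0 and 24.6 CPM in medial and 14.3 and 13.7 CPM in lateral libraries. The libraries of each group lay close together and apart from the other group, and the level was 1.83-fold higher in medial cortex (log2 fold change 0.87, SE 0.11, edgeR adjusted p = 0.0278). Part of its exons (21.3% of their bases) overlaps exons of Syn3 on the opposite strand, and in these unstranded libraries reads of the shared part cannot be told apart. Syn3 averaged 4.87 ± 0.420 CPM across the 3 medial and 7.52 ± 2.34 CPM across the 2 lateral libraries (SD), the opposite direction. Among the called genes Adamts8 was the only other one with an overlap of this kind in GENCODE, over 10.6% of its exonic bases.

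Timp2, which joins Mmp14 in the activation of pro-Mmp2, had 35.6, 45.8 and 44.0 CPM in medial and 32.8 and 39.6 CPM in lateral libraries. Its groups overlapped, and the log2 fold change was 0.21 (SE 0.15, edgeR adjusted p = 0.373). Timp1 had 1.28, 0.385 and 0.389 CPM in medial and 0.289 and 0.427 CPM in lateral libraries (0.92, SE 0.62, edgeR adjusted p = 0.356), and without medial library 1 the log2 fold change was 0.14. Timp4 had 1 medial and 5 lateral reads. The summed level of the 4 genes was 64.3, 71.2 and 69.0 CPM in medial and 47.4 and 53.8 CPM in lateral libraries.

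Outside the families, 16 genes were listed, mostly of activators, inhibitors and receptors of proteases. Of 14 tested, 2 were higher in medial cortex (background 4.62%) and 1 was lower (background 5.10%). Their median log2 fold change was 0.25, beside 0.01 over all genes tested. Pcsk6, a proprotein convertase that removes propeptides, had 29.7, 27.9 and 22.1 CPM in medial and 2.07 and 1.47 CPM in lateral libraries, a 14.9-fold difference (log2 fold change 3.90, SE 0.23, edgeR adjusted p = 0.0104). Furin, a related convertase that activates membrane-type MMPs and was named after its value was seen, averaged 19.0 ± 3.08 CPM across the 3 medial and 18.8 ± 0.789 CPM across the 2 lateral libraries (SD) (0.02, SE 0.16). Serpinh1, a collagen chaperone, was higher (0.68, SE 0.08), and Plat, the tissue plasminogen activator, was lower (−0.70, SE 0.11). Without medial library 1, Lrp1, an endocytic receptor for these proteases, was lower too and Serpine2 higher. Reck, a membrane-anchored inhibitor of Mmp14, Mmp2 and Mmp9, also named after its value was seen, did not pass (−0.23, SE 0.15, edgeR adjusted p = 0.332). Of the 10 tested ADAM genes, which encode the related membrane sheddases, 1 was lower (background 5.10%) and 0 higher (background 4.62%). The lower one was Adam22, which has no protease activity (−0.68, SE 0.12, edgeR adjusted p = 0.0354).

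Levels of different genes were compared per kilobase of exon, with exon lengths from GENCODE M21, whose gene models may differ from those used for counting. By this measure Mmp14 was the highest member in medial cortex at 20.3 CPM per kb, followed by Mmp15 at 11.6, Timp2 at 10.7 and Mmp24 at 9.40. In lateral cortex Adamts3 was the highest at 20.2 CPM per kb, followed by Mmp24 at 13.1, Mmp14 at 12.2 and Mmp17 at 9.99. Adamts3 stood at 4.34 and Mmp17 at 3.80 CPM per kb in medial cortex. The single libraries of Mmp14 in medial cortex (19.0 to 21.5 CPM per kb) and of Adamts3 in lateral cortex lay apart from those of the next gene. Among the genes next in order they overlapped, as with Mmp15 (10.8 to 13.1 CPM per kb) and Timp2 (9.13 to 11.8) in medial and Mmp24 (11.3 to 14.9) and Mmp14 (10.9 to 13.5) in lateral libraries. The lowest means among the genes tested were 0.0819 CPM per kb for Adamts13 in medial and, with overlapping libraries, 0.0362 CPM per kb for Adamts15 and 0.0363 for Adamts19 in lateral cortex.

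**Figure D5:**
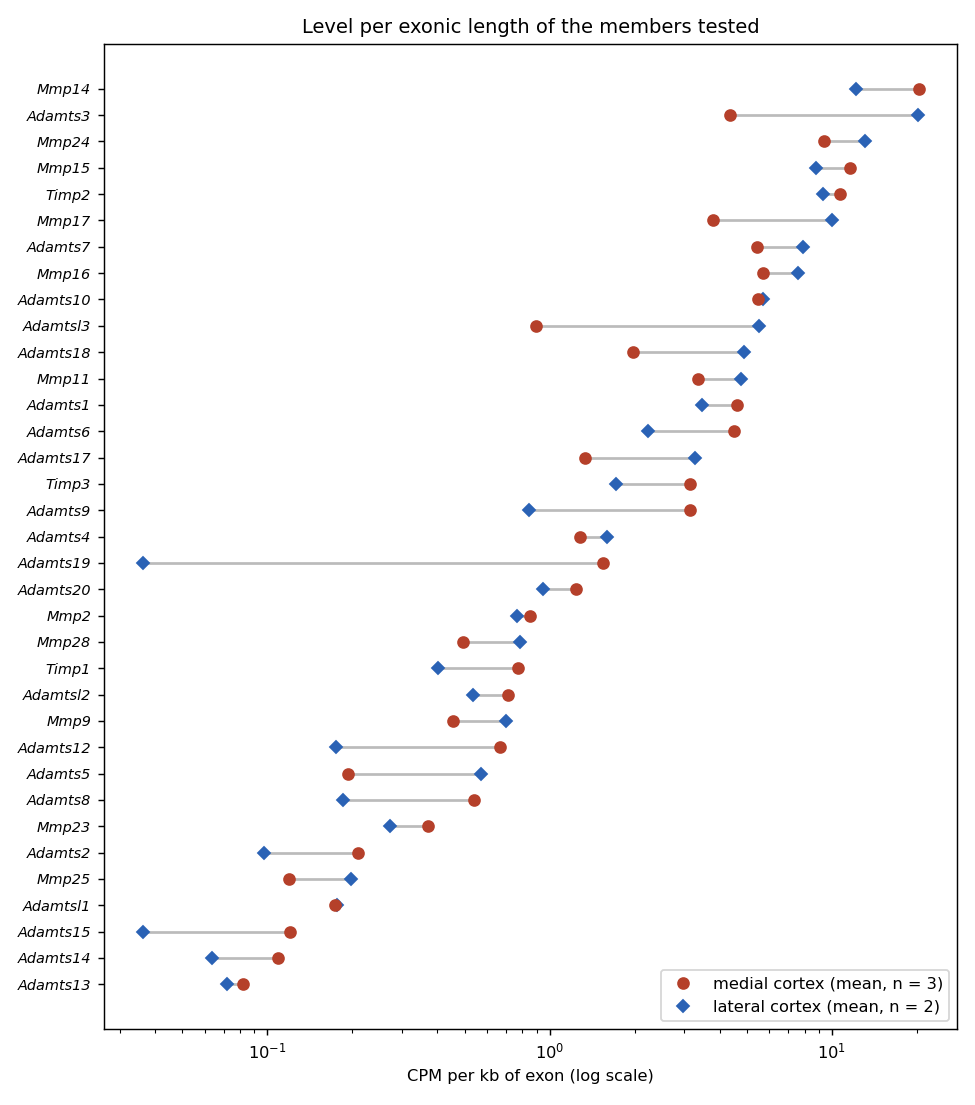
Mean level per kilobase of exon (log axis) of the 35 tested members in medial (red circles, n = 3) and lateral cortex (blue diamonds, n = 2), ordered by the higher of the 2 means. Adamts3 leads in lateral cortex at 20.2 CPM per kb and Mmp14 in medial cortex at 20.3 CPM per kb.

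The medial libraries also differed among themselves in these genes. Adamts14, Adamts15, Adamts20 and Timp1 exceeded every other library by 2-fold or more in medial library 1. These were 11.4% of the 35 tested members, while 2.29% of all genes tested stood out in that library in the same way. Adamts15 had 2.67 CPM there, 0.385 and 0.695 CPM in the other medial libraries and 0.304 and 0.446 CPM in the lateral ones. Medial library 1 is also the library with the high meningeal, hem and microglial sums and the low cortical sum given above, and the part of these in the values was not tested. Adamts19 was the only member that stood out in this way in medial library 2, and none did in the remaining libraries. Of the 35 tested members, 9, Adamtsl3 and Adamts3 among them, were lowest of all 5 libraries in medial library 1. This was not particular to it, as 6 and 2 were lowest in medial libraries 2 and 3, and 8 and 10 in lateral libraries 1 and 2. The share over all genes was not taken.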

How the data were processed

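RNA was sequenced from polyadenylated, unstranded libraries, per the labels' protocols. The deposited files hold raw read counts per gene symbol, and the submitters' processing notes name mm9, BWA, STAR and HTSeq without versions or roles. The 5 HTSeq classes of unassigned reads made up 23.1% to 28.7% of each file and were left out of library sizes and tests. Groups came from the titles. Counts were scaled by TMM and tested in edgeR 4.0.16 (R 4.3.3) with the quasi-likelihood test in its newer form, with no covariate, which leaves 3 residual degrees of freedom, after filterByExpr (count 10, total 15). Each SE was computed as the absolute log2 fold change over the square root of the F statistic. Alternatives used DESeq2 1.42.0, limma 3.58.1, other scalings and filters, thinning, blocks and leaving out libraries. Both tools were tested on simulated data of the same design (1 draw): no called change had the wrong sign, but false calls exceeded the nominal share in edgeR and more so in DESeq2.

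The members and lists were chosen with earlier results of these data known. Named genes are all called members, the Timps, the 3 with the highest mean level per family, members with 0 reads, and uncalled members with at least a 2-fold difference and no overlap. From each list came up to 4 called genes, or 2 with the highest level where none was called. Other genes were named for their role or after their values were seen. Exon lengths and overlaps came from GENCODE M21 and promoters from RefSeq GRCm38.p6, used for lengths, neighbours and sequence only, because the build the submitters name is mm9. The limit given for 0 reads covers counting error only, while each SE also includes variation between libraries.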

Additional observations from a re-analysis of the deposited data

How the results depend on the processing

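With all libraries, the 10 called members kept their sign under each of the 11 alternatives to scaling, test, filter, depth or block, and likewise in the fits without 1 library. Of the uncalled members named by rule, Adamts10 and Adamtsl1, with values near 0, had the opposite sign in 3 and 6 of 16 alternatives. Among the 11 alternatives with all libraries, the number of members called moved by over 1.5 times only with blocks. A replicate block by the number in the titles gave 3 higher and 4 lower, in a fit that called 1076 of 16229 genes tested. A replicate block by the tag shared in the deposited names gave 9 higher and 11 lower, with a median log2 fold change of −0.065. That fit called 5361 of 16229 genes tested. The title block ended the calls of Adamts8, Mmp14 and Mmp17. The tag block kept all 10 calls and added Adamts5, Adamts6, Adamts7, Adamts9, Mmp9, Mmp15, Mmp16, Mmp24, Mmp28 and Timp2. Deviations from the group means correlated at 0.03 and −0.38 for libraries with the same title number, and at 0.38 and 0.38 for the same tag. With only 2 lateral libraries, their deviations mirror each other, so each medial library has the same value with opposite sign for the other lateral library. These values therefore cannot decide the pairing. The labels do not say that the title numbers pair the samples, so they were not taken to. The tag may mark an embryo, but the labels do not say so and it joins only 2 pairs, so it was not taken to pair them either. Over all genes, 750 were higher and 827 lower. DESeq2 called 1737 higher and 1790 lower, no filter on low counts 496 higher, the title block 454 higher, and the tag block 2634 higher and 2727 lower.

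Leaving out 1 library gave between 0 and 6 members higher and between 0 and 7 lower, a median of −0.11 to 0.36 for the members, and between 0 and 1027 genes higher and between 0 and 1137 lower. These fits have fewer libraries, and no other cause was tested. DESeq2 without 1 library was chosen after seeing the data. Without 1 medial library it gave between 6 and 7 members higher and between 5 and 7 lower. These fits called between 2006 of 16496 and 3108 of 16275 genes tested. The fit without medial library 1 for the gene lists was also chosen after seeing the data. The lateral libraries were deeper, and thinned to the smallest library 4 members were higher and 5 lower, with 1432 of 15851 genes tested called. With 3 against 2 libraries, a difference that missed the threshold is not shown to be absent.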
